A study of Mus musculus with 203 samples.

Results

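The genes that synthesize leukotrienes and prostaglandins were followed in the airways and the lung parenchyma of mice exposed to house dust mite (HDM) extract, cigarette smoke (CS) and the glucocorticoid dexamethasone (DEX). The set holds 10 genes chosen by name: Alox5, Alox5ap, Ltc4s, Lta4h, Alox15, Ptgs1, Ptgs2, Hpgds, Ptges and Ptgis. Each matched 1 of the 43346 gene identifiers in the count table, and all 10 passed the filter on low counts in each fit. Bulk RNA sequencing gave libraries in 20 groups, from female Balb/C mice labelled as 18 to 20 weeks old, with no gene altered. At 3 weeks, mice had received PBS (11 airway and 12 parenchyma libraries) or HDM (10 libraries of each tissue) into the nose. Airways and parenchyma were parted by blunt dissection. At 11 weeks there were 16 groups of 10 libraries, namely PBS.AIR, HDM.AIR, PBS.CS and HDM.CS in both tissues, each also as a DEX group that was given dexamethasone during week 11. In these names PBS or HDM is the nasal exposure, and AIR or CS is room air or smoke from week 4 to week 11.

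Arachidonic acid, released from membranes by phospholipase A2, feeds both branches of the pathway. In the leukotriene branch, 5-lipoxygenase (Alox5) works with its activating protein FLAP (Alox5ap) to give leukotriene A4. Lta4h turns this into the neutrophil attractant leukotriene B4, and Ltc4s couples it to glutathione to give the cysteinyl leukotrienes, which contract airway muscle and are made by mast cells, eosinophils and macrophages. In the prostanoid branch, the cyclooxygenases Ptgs1 and Ptgs2 make prostaglandin H2, from which Hpgds makes prostaglandin D2, Ptges makes prostaglandin E2 and Ptgis makes prostacyclin, the vasodilator of vessel walls. Alox15 is a separate lipoxygenase, known in mice from macrophages, eosinophils and airway epithelium.

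Levels are given as CPM, the reads of a gene as a share of its library's reads scaled to a common total, after TMM normalization, and a gene was taken as changed at a Benjamini-Hochberg adjusted p under 0.05 from limma-voom over all genes tested. Total counts ran from 13003154 to 40240733 per library (median 28090684). The labels do not say whether libraries came from separate mice, so the tests measure the spread between libraries. Nor do they say which airway and parenchyma libraries share a mouse, and comparisons of the tissues took libraries as unpaired. The basal cell markers Krt5, Trp63 and Krt15 summed to 2.10 to 350.5 CPM in airway libraries (median 43.1) and 0.420 to 7.59 CPM in the parenchyma (median 2.37), and only 1 of the 101 airway libraries lay within the parenchymal range. That library, replicate 6 of the 11 week HDM.AIR airway group, stood apart, as did replicates 2, 4, 6 and 10 of the 3 week HDM airway group. Replicate 4 had 2773 CPM of alveolar type II markers against 7780.0 to 19189.6 CPM in the other 9 libraries, and replicates 2, 6 and 10 had cardiac and smooth muscle markers within the parenchymal range. Calls that leaving out any of these 5 libraries, 1 at a time, ended or added are named beside the results. Other airway markers parted the tissues less well than those of basal cells. Of the 101 airway libraries, 49 lay at or below the highest parenchymal sum for ciliated cell markers. For smooth muscle markers 20 did, and for cardiac muscle markers 4. Alveolar type II markers reached 31952.5 CPM in airway libraries and 38814 CPM in the parenchyma, and no airway library was free of them.

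Per kilobase of exon, FLAP was the most abundant leukotriene gene of the chosen set in the control parenchyma at 3 weeks. The prostacyclin synthase was the most abundant prostanoid gene of that set. Median levels there were 27.9 CPM per kilobase for Ptgis, 23.4 for Alox5ap and 23.2 for Ptgs1. Ltc4s, Ptgs2, Lta4h, Ptges and Alox5 followed between 2.73 and 6.82 CPM per kilobase, and Alox15 and Hpgds were lowest at 0.732 and 0.642. The length used was that of all annotated exons of a gene merged, such as 6102 bases for Lta4h and 6425 for Hpgds. The order therefore depends on the annotation as well as on the reads.

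Airway and parenchyma differed before any exposure. At 3 weeks 6 of the 10 genes differed between PBS airway and PBS parenchyma, where 56.1% of all genes did. Alox15 stood at 4.82 to 16.9 CPM with a median of 8.39 in PBS airways and 0.766 to 3.44 CPM with a median of 1.80 in PBS parenchyma. Every airway library lay above every parenchymal one (log2FC 2.45, SE 0.51, adjusted p = 7.9e-05). Ptges was likewise higher in every PBS airway library, at 21.23 to 36.01 CPM against 14.60 to 21.15 CPM (log2FC 0.58, SE 0.12, adjusted p = 0.00012), and Hpgds was higher in airways with overlapping groups (log2FC 0.66, SE 0.23, adjusted p = 0.011). Alox5, Ltc4s and Ptgs1 were lower in airways, with log2FCs of -0.43, -0.39 and -0.42 (adjusted p = 0.0079, 0.0496 and 0.00076). The Ltc4s call did not hold with 4 of 6 alternatives, meaning other tests, scalings, filters or sets of libraries for the same comparison (adjusted p = 0.054 to 0.12). At 11 weeks 7 of 10 genes differed between PBS.AIR airway and parenchyma, beside 56.4% of all genes. Alox15 (2.14), Hpgds (0.91) and Ptges (0.38) were again higher in airways, while Alox5, Alox5ap, Lta4h and Ptgs1 were lower, with log2FCs of -0.23 to -0.57.

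**Figure D1:**
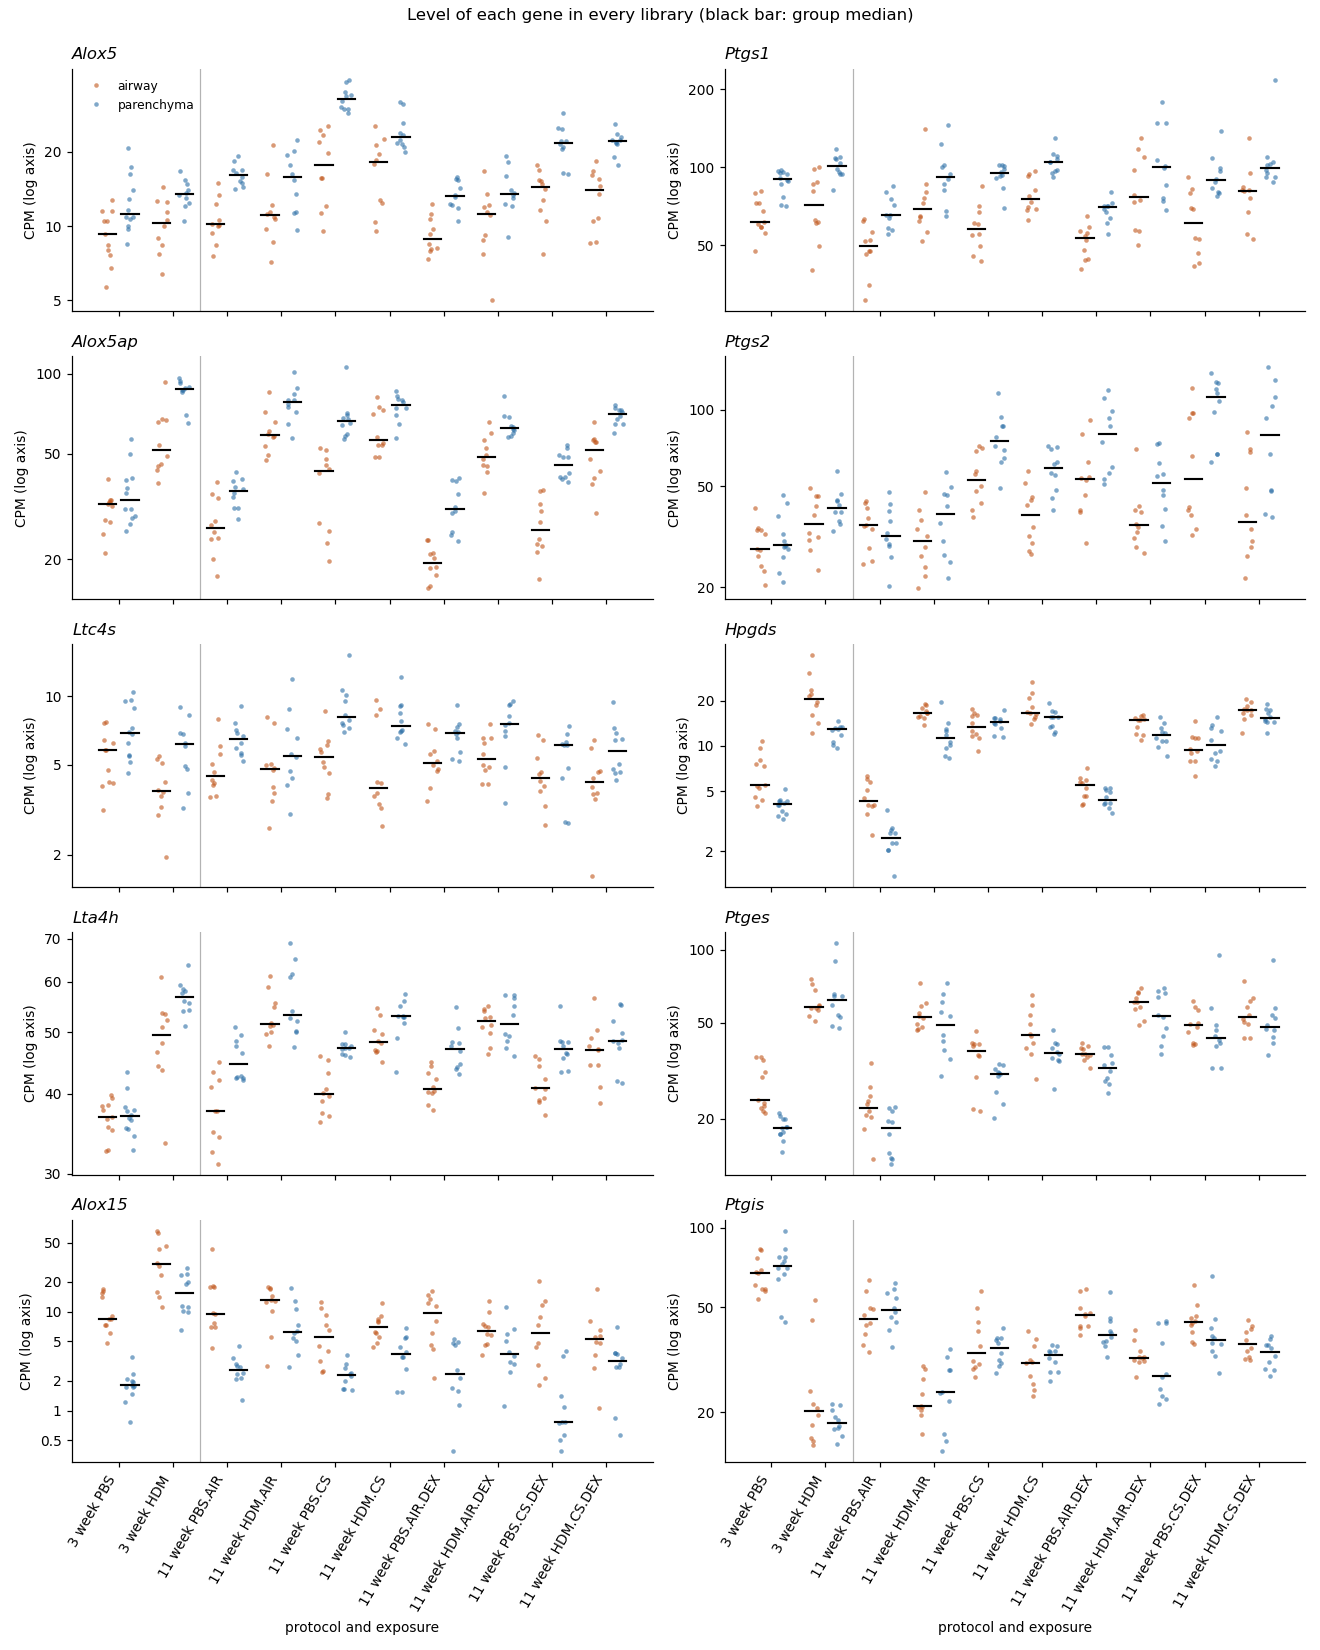
Level of each gene in CPM on a log axis, 1 point per library and a black bar at the group median, for airway (orange) and parenchyma (blue) in the 10 combinations of protocol and exposure; a grey line parts the 3 week from the 11 week groups. Ptgis falls and Alox5ap, Hpgds and Ptges rise with HDM in both tissues, while Alox5 peaks in the 11 week PBS.CS parenchyma at a median of 32.7 CPM.

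The promoters of Ptgs2 and Ptges are shown because both genes rose in both tissues with smoke and with dexamethasone alone. That of Ptgs1, the other cyclooxygenase, is shown beside them. Hpgds also rose with smoke, but with dexamethasone alone only in the parenchyma, and its promoter is not shown. Each run is the 250 bases before the start site that RefSeq gives on GRCm38.p6, 5′ to 3′ on the gene's strand, at chr2:36230176-36230425 (plus strand) for Ptgs1, chr1:150099781-150100030 (plus strand) for Ptgs2 and chr2:30903298-30903547 (minus strand) for Ptges. The Ptges window lies inside the gene in the annotation used for exon lengths (chr2:30889471-30929863), whose outer start is farther upstream. Capitals mark matches, on either strand, to TATAAA (the core promoter box), GAGGAAGT (bound by PU.1), the palindromic motif of STAT factors and GGGCGG (bound by SP1).
Ptgs1: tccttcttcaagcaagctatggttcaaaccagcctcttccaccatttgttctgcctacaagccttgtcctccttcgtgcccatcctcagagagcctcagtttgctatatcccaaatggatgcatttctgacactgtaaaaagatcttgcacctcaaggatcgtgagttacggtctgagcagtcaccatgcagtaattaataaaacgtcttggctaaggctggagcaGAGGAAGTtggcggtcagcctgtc
Ptgs2: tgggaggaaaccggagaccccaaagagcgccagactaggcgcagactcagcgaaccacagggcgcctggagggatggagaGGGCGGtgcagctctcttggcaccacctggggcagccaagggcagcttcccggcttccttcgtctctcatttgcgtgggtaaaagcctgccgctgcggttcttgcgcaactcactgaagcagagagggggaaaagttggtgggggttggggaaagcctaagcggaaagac
Ptges: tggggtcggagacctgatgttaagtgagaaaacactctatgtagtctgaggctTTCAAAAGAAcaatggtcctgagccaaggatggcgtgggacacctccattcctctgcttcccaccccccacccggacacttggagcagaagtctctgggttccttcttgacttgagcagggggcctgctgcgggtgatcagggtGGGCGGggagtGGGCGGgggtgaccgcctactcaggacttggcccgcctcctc
No window held TATAAA, which 12.4% of the 32851 promoters in the table hold. Ptgs1 held GAGGAAGT 24 bases before the start (2.44% of promoters), and so did the window of Hpgds, not shown, 49 bases before its start. Ptgs2 held GGGCGG 170 bases before the start, and Ptges held it 53 and 42 bases before the start (32.7% of promoters). Ptges also held the STAT motif farther upstream (5.85% of promoters). The full palindromic glucocorticoid response element was in none of the windows of the 7 genes found in the table and in 0.00913% of all promoters. These are matches of letters only.

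HDM at 3 weeks raised the leukotriene genes FLAP and Lta4h, Alox15 and the synthases of prostaglandins D2 and E2, and lowered the prostacyclin synthase. In airways 8 of 10 genes changed, where 74.6% of all genes did, 6 higher (34.1% of all genes) and 2 lower (40.5%). In the parenchyma 7 of 10 changed beside 77.7% of all genes, 6 higher (33.4%) and 1 lower (44.3%). The share of genes changed was thus near that of all genes, and the share of genes that rose was above it. The 10 genes were chosen with earlier results of these data known, so comparisons with all genes, here and below, are descriptions. The median log2FC of the 10 genes was 0.32 in airways and 0.46 in the parenchyma, against -0.07 and -0.13 over all genes tested.

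Within the leukotriene branch FLAP and Lta4h rose, Ltc4s fell in airways, and 5-lipoxygenase itself did not pass the test. Alox5ap, which presents arachidonate to the enzyme, stood at 25.6 to 56.9 CPM with a median of 33.3 in PBS parenchyma and 65.4 to 96.5 CPM with a median of 87.6 after HDM. All 10 HDM libraries lay above the highest PBS library (log2FC 1.22, SE 0.13, adjusted p = 1.3e-11). In airways it was at 21 to 40.01 CPM in PBS controls and 38.8 to 93.2 CPM after HDM (log2FC 0.83, SE 0.13, adjusted p = 2.0e-07), with 9 of 10 HDM libraries above all controls. Lta4h, the leukotriene B4 enzyme, rose less in size, from a median of 36.9 CPM (32.6 to 43.3) to a median of 56.7 CPM (51.1 to 63.6) in the parenchyma, without overlap (log2FC 0.55, SE 0.06, adjusted p = 4.2e-11), and by 0.37 ± 0.06 log2FC in airways. Ltc4s, the cysteinyl leukotriene enzyme, went the other way in airways, from a median of 5.79 CPM (3.15 to 7.72) to a median of 3.83 CPM (1.96 to 5.46), with overlapping groups (log2FC -0.49, SE 0.19, adjusted p = 0.02), and did not pass with no filter (adjusted p = 0.056). In the parenchyma its log2FC was -0.32 ± 0.18 (adjusted p = 0.098), and for Alox5 the log2FCs were 0.11 ± 0.14 in airways and 0.06 ± 0.14 in the parenchyma (adjusted p = 0.5 and 0.68).

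Alox15 had the largest log2FC of the 10 genes in the parenchyma. It rose there from a median of 1.80 CPM (0.766 to 3.44) to a median of 15.3 CPM (6.53 to 27.8), without overlap (log2FC 3.01, SE 0.50, adjusted p = 8.9e-07). In HDM airways it stood at 11.1 to 66 CPM with a median of 30.2, with 7 of 10 libraries above all PBS airways (log2FC 1.54, SE 0.29, adjusted p = 8.7e-06). The difference between the tissues' responses missed the threshold (log2 difference -1.47, SE 0.58, adjusted p = 0.07), and passed without HDM airway replicate 4 (log2 difference -1.67, adjusted p = 0.035). Goblet cell markers summed to 133.2 to 890.3 CPM in PBS airways and 481 to 8445 CPM in the same HDM airway libraries. Of these markers 3 of 4 were higher (34.1% of all genes). Their part in the Alox15 result was not tested.

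In the prostanoid branch the cyclooxygenases moved little and the terminal synthases moved most. Ptgs1, the constitutive cyclooxygenase, had log2FCs of 0.09 ± 0.11 in airways and 0.14 ± 0.11 in the parenchyma (adjusted p = 0.48 and 0.22). Ptgs2, the inducible one, rose slightly, with log2FCs of 0.27 ± 0.13 and 0.37 ± 0.13 (adjusted p = 0.046 and 0.007). Its groups overlapped in both tissues, and the airway call did not hold with 6 of 12 alternatives (adjusted p = 0.053 to 0.15), among them leaving out HDM airway replicate 2 (log2FC 0.27, adjusted p = 0.062) or 10 (log2FC 0.24, adjusted p = 0.091).

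Hpgds, the prostaglandin D2 synthase of mast cells, Th2 cells and macrophages, stood at 4.02 to 10.7 CPM with a median of 5.49 in PBS airways and 12.2 to 40.1 CPM with a median of 20.6 in HDM airways. The groups did not overlap (log2FC 1.66, SE 0.17, adjusted p = 1.9e-11), nor did they in the parenchyma, at 3.28 to 5.19 CPM against 9.68 to 14.6 CPM (log2FC 1.53, SE 0.21, adjusted p = 2.6e-08). Ptges, the inducible prostaglandin E2 synthase, rose from a median of 18.4 CPM (14.6 to 21.2) to a median of 61.7 CPM (47.5 to 106.6) in the parenchyma (log2FC 1.73, SE 0.12, adjusted p = 3.2e-16) and from a median of 23.9 to 58 CPM in airways (log2FC 1.13, SE 0.11, adjusted p = 1.3e-11). It was the single gene of the 10 whose HDM response differed between the tissues (log2 difference -0.60, SE 0.17, adjusted p = 0.012), where 17.3% of all genes differed. Lta4h differed too without HDM airway replicate 2, 4 or 6 (log2 differences of -0.27, -0.20 and -0.26, adjusted p = 0.02, 0.043 and 0.027), as did Alox5ap without replicate 10 (-0.47, adjusted p = 0.044). For Ptges the HDM medians were 58 CPM in airways and 61.7 in the parenchyma, and the PBS level was higher in airways.

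Ptgis moved against the others. PBS parenchyma held 44 to 97.3 CPM with a median of 71.7, and HDM parenchyma held 15.2 to 21.5 CPM with a median of 18.3, with every HDM library below every control (log2FC -1.96, SE 0.16, adjusted p = 3.7e-14). In airways it fell from a median of 67.1 CPM (53.8 to 82.8) to a median of 20.2 CPM (15 to 53), again without overlap (log2FC -1.59, SE 0.16, adjusted p = 8.8e-12). The highest HDM airway value, 53 CPM, was that of replicate 4, replicate 7 held 44.6 CPM, and the other HDM airway libraries lay at 24.1 CPM or less.

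Markers of several cell types moved in the same libraries. Of all genes, 34.1% rose and 40.5% fell in airways, and 33.4% rose and 44.3% fell in the parenchyma. Macrophage markers summed to 478 to 1238 CPM in PBS parenchyma and 4068 to 26339 CPM after HDM, with 6 of 8 markers higher, and to 528 to 1075 and 1006 to 12283 CPM in airways, with 6 higher and 2 lower. Eosinophil markers had a median sum of 9.72 CPM in PBS and 45.4 CPM in HDM airways (4 of the 5 tested higher), and Epx was under 0.1 CPM in every PBS library of both tissues. Mast cell markers had median sums of 184.1 and 145.01 CPM (1 of 9 higher and 3 lower). All 4 endothelial markers were lower in both tissues, with sums of 1041 to 1547 CPM in PBS and 497 to 708 CPM in HDM parenchyma. The part of these cells in the changes of the 10 genes was not tested, and in bulk tissue fewer cells of a type and less RNA per cell cannot be told apart.

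At 11 weeks HDM again raised FLAP, Lta4h, Hpgds and Ptges and lowered Ptgis, and now Ptgs1 rose as well. In airways 6 of 10 genes changed beside 61.1% of all genes, 5 higher (31.3%) and 1 lower (29.8%), with a median log2FC of 0.33 against 0.0037 over all genes. In the parenchyma 7 changed beside 59.5% of all genes, 6 higher (32.6%) and 1 lower (26.9%), with medians of 0.45 and 0.05. Hpgds stood at 1.37 to 3.73 CPM with a median of 2.45 in PBS.AIR parenchyma and 8.37 to 19.7 CPM with a median of 11.2 in HDM.AIR parenchyma, without overlap (log2FC 2.31, SE 0.17, adjusted p = 5.4e-26). In airways its levels ran from 2.57 to 6.34 CPM and from 13.9 to 18.9 CPM (log2FC 1.94, SE 0.14, adjusted p = 1.4e-27). Alox5ap, Ptges and Ptgis also kept HDM.AIR and PBS.AIR libraries fully apart in both tissues. Their log2FCs in airways and parenchyma were 1.21 and 1.18 for Alox5ap, 1.31 and 1.53 for Ptges, and -0.98 and -1.01 for Ptgis. Ptgs1 rose from a median of 65.4 CPM (55.5 to 84.9) to a median of 92 CPM (65.1 to 145.9) in the parenchyma (log2FC 0.53, SE 0.14, adjusted p = 0.00067) and by 0.62 ± 0.14 log2FC in airways, with overlapping groups. Macrophage markers summed to 778 to 1395 CPM in PBS.AIR and 1779.9 to 14994 CPM in HDM.AIR parenchyma (6 of 8 higher), and all 4 endothelial markers were again lower. Their part was not tested.

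Alox15 did not pass the test in airways at 11 weeks. PBS.AIR airways held 4.27 to 43 CPM with a median of 9.53 and HDM.AIR airways 2.81 to 17.9 CPM with a median of 13. The log2FC was 0.0037 (SE 0.29, adjusted p = 0.99). Replicate 1 of PBS.AIR airway held the 43 CPM, where the next value was 18.2 CPM, and it was not left out of any fit. In the parenchyma Alox15 was still higher after HDM (log2FC 1.45, SE 0.44, adjusted p = 0.0026). The responses of the tissues differed (log2 difference -1.45, SE 0.53, adjusted p = 0.029), beside 27.6% of all genes, and no longer passed without HDM.AIR airway replicate 6 (log2 difference -1.23, adjusted p = 0.063) or with a filter of CPM 10 (adjusted p = 0.066). Setting the protocols side by side, the HDM effect on Alox15 was smaller at 11 than at 3 weeks in airways (log2 difference -1.59, SE 0.40, adjusted p = 0.0011) and parenchyma (log2 difference -1.68, SE 0.65, adjusted p = 0.027). The fall of Ptgis was also smaller at 11 weeks (log2 differences of 0.55 in airways and 0.83 in the parenchyma). In the parenchyma the log2FC of Lta4h was smaller (-0.31) and that of Hpgds larger (0.66). The PBS medians also differed between the protocols. Hpgds medians in PBS and HDM parenchyma were 4.12 and 12.9 CPM at 3 weeks, and 2.45 and 11.2 CPM at 11 weeks. For Ptgis they were 71.7 and 18.3, then 48.8 and 23.8 CPM, and for Lta4h 36.9 and 56.7, then 44.6 and 53.2 CPM. In all, 2 of 10 genes differed by week in airways and 4 of 10 in the parenchyma, where 28.4% and 42.4% of all genes did. Ptgs1 differed by week in airways as well without 3 week HDM airway replicate 2, 6 or 10 (log2 differences of 0.53, 0.49 and 0.50, adjusted p = 0.031, 0.045 and 0.038). The Ptgis call in airways did not hold with edgeR or DESeq2 (adjusted p = 0.08 and 0.1), nor those of Alox15 and Hpgds in the parenchyma with a filter of CPM 10 (adjusted p = 0.13 and 0.11). The protocols also differ in dosing schedule and duration, which cannot be told apart from the week.

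**Figure D2:**
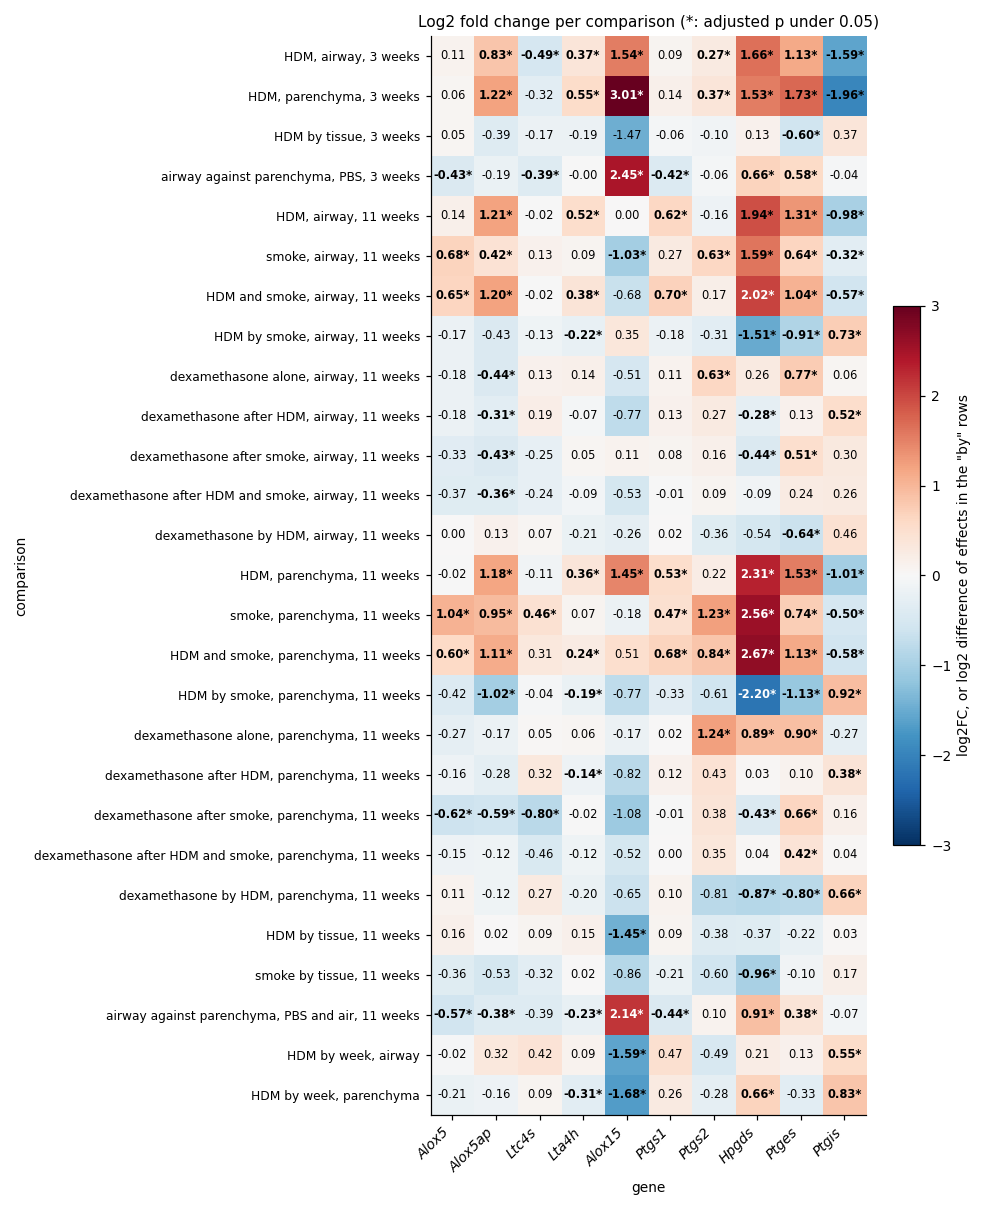
Log2 fold change of each gene (columns) in each of the 27 comparisons (rows), with red for higher and blue for lower in the first-named group, and an asterisk where the adjusted p was under 0.05; rows with "by" hold the difference between the effects compared. Hpgds is red in the rows for HDM, smoke and both against their controls, up to 2.67, and Ptgis is blue in each of these, down to -1.96.

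Smoke alone raised 5-lipoxygenase and the inducible cyclooxygenase, which did not pass the test under HDM at 11 weeks, as well as FLAP, Hpgds and Ptges. The difference between the smoke and HDM effects was not tested. In the parenchyma 8 of 10 genes changed beside 35.9% of all genes, 7 higher (17.7%) and 1 lower (18.2%). In airways 7 of 10 changed beside 13.7% of all genes, 5 higher (7.66%) and 2 lower (6.03%). The median log2FC of the 10 genes was 0.61 in the parenchyma and 0.34 in airways, against 0.00023 and 0.0021 over all genes.

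Alox5 stood at 14.2 to 19.2 CPM with a median of 16.1 in PBS.AIR parenchyma and 28.8 to 39.1 CPM with a median of 32.7 in PBS.CS parenchyma, where all 10 smoke libraries lay above all controls (log2FC 1.04, SE 0.14, adjusted p = 2.4e-10). In airways 7 of 10 did (log2FC 0.68, SE 0.15, adjusted p = 0.00059). Alox5ap rose with it, from a median of 36.1 CPM (28.3 to 42.7) to a median of 66.4 CPM (56.9 to 105.7) in the parenchyma, without overlap (log2FC 0.95, SE 0.12, adjusted p = 1.3e-10), and by 0.42 ± 0.13 log2FC in airways. Ltc4s rose in the parenchyma (log2FC 0.46, SE 0.17, adjusted p = 0.027), from a median of 6.48 to 8.08 CPM, with overlapping groups. Lta4h did not pass in either tissue, with log2FCs of 0.09 ± 0.05 and 0.07 ± 0.05. Alox5, Alox5ap and Ltc4s together lead to leukotriene C4, and all 3 were thus higher in smoke-exposed parenchyma.

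Hpgds had the largest log2FC of the 10 genes with smoke. It stood at 11.5 to 17.3 CPM with a median of 14.4 in PBS.CS parenchyma, where the PBS.AIR libraries reached at most 3.73 CPM (log2FC 2.56, SE 0.17, adjusted p = 1.4e-28). In airways it went from a median of 4.29 to 13.5 CPM, also without overlap (log2FC 1.59, SE 0.14, adjusted p = 6.1e-19). The response was larger in the parenchyma (log2 difference -0.96, SE 0.22, adjusted p = 0.0033), the single one of the 10 genes to differ by tissue, beside 3.73% of all genes. Ptges rose in both tissues, by 0.74 ± 0.15 and 0.64 ± 0.14 log2FC, and Ptgis fell in both, with log2FCs of -0.50 ± 0.12 and -0.32 ± 0.12. In airways the Ptgis call did not hold with 4 of 8 alternatives (adjusted p = 0.061 to 0.081), and the tissue difference of Hpgds did not with a filter of CPM 10 (adjusted p = 0.068).

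Of the cyclooxygenases, Ptgs2 stood at 20.2 to 47.4 CPM with a median of 31.9 in PBS.AIR parenchyma and 49 to 116.5 CPM with a median of 75.1 after smoke, without overlap (log2FC 1.23, SE 0.21, adjusted p = 7.3e-07). In airways 7 of 10 smoke libraries lay above all controls (log2FC 0.63, SE 0.21, adjusted p = 0.027). Ptgs1 rose in the parenchyma (log2FC 0.47, SE 0.14, adjusted p = 0.005), and its airway log2FC of 0.27 ± 0.14 did not pass (adjusted p = 0.23). Alox15 fell in airways, from a median of 9.53 to 5.54 CPM with overlapping groups (log2FC -1.03, SE 0.33, adjusted p = 0.023). Replicate 1 of the PBS.AIR airway group held the highest value there, 43 CPM, where the next was 18.2 CPM. With airways fitted alone, the smoke calls of Alox15 and Alox5ap there did not hold (adjusted p = 0.071 and 0.055), nor did that of Ptgs2 with no filter (adjusted p = 0.051).

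Macrophage markers summed to 778 to 1395 CPM in PBS.AIR parenchyma and 2255 to 3563 CPM in PBS.CS parenchyma (6 of 8 higher, none lower), and neutrophil markers to 159.7 to 632 and 335 to 816 CPM (6 of 7 higher). Of all genes, 17.7% rose with smoke in the parenchyma and 18.2% fell. Mast cell markers were at 186.4 to 246 and 160.02 to 233 CPM (1 of 9 higher and 4 lower). The part of these cells in the smoke results was not tested.

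For Hpgds, Ptges and Ptgis in both tissues, and for FLAP in the parenchyma, HDM and smoke together changed the level less than the product of both effects. In HDM.CS airways 7 of 10 genes differed from PBS.AIR beside 49% of all genes, and in the parenchyma 8 of 10 beside 47.4%. For Hpgds the log2FC was 2.67 ± 0.17 in the parenchyma and 2.02 ± 0.13 in airways. HDM.CS parenchyma held 12 to 19.4 CPM with a median of 15.5, a range that overlaps both that of HDM.AIR and that of PBS.CS given above. The term for HDM by smoke was therefore negative, at -2.20 ± 0.20 in the parenchyma and -1.51 ± 0.17 in airways (adjusted p = 9.5e-18 and 1.6e-11).

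The same term passed for 5 of 10 genes in the parenchyma and 4 of 10 in airways, where it did for 36% and 19.1% of all genes. Alox5ap was near one level in all exposed parenchyma, at medians of 78.1 CPM with HDM, 66.4 with smoke and 76.5 with both (log2 difference -1.02, SE 0.17, adjusted p = 5.1e-07), and its airway term missed the threshold (-0.43 ± 0.18, adjusted p = 0.074). Ptges had its highest median with HDM alone, 48.7 CPM in the parenchyma against 30.8 with smoke and 37.5 with both (log2 difference -1.13, SE 0.20, adjusted p = 8.5e-07 in the parenchyma, and -0.91 in airways). Ptgis had its lowest median with HDM alone, 23.8 CPM against 35 and 33 (log2 difference 0.92, SE 0.17, adjusted p = 3.9e-06 in the parenchyma, and 0.73 in airways). For Lta4h the terms were small (-0.19 and -0.22) and did not hold with 2 of 8 alternatives in the parenchyma (adjusted p = 0.052 and 0.12) and 1 of 9 in airways (0.069). Alox5 was higher than in PBS.AIR with both exposures, by 0.60 ± 0.14 log2FC in the parenchyma, and its term missed the threshold (log2 difference -0.42, SE 0.20, adjusted p = 0.086). On the log2 scale a term of the opposite sign to the effects says that their ratios did not multiply. All of these comparisons share the PBS.AIR libraries as controls.

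**Figure D3:**
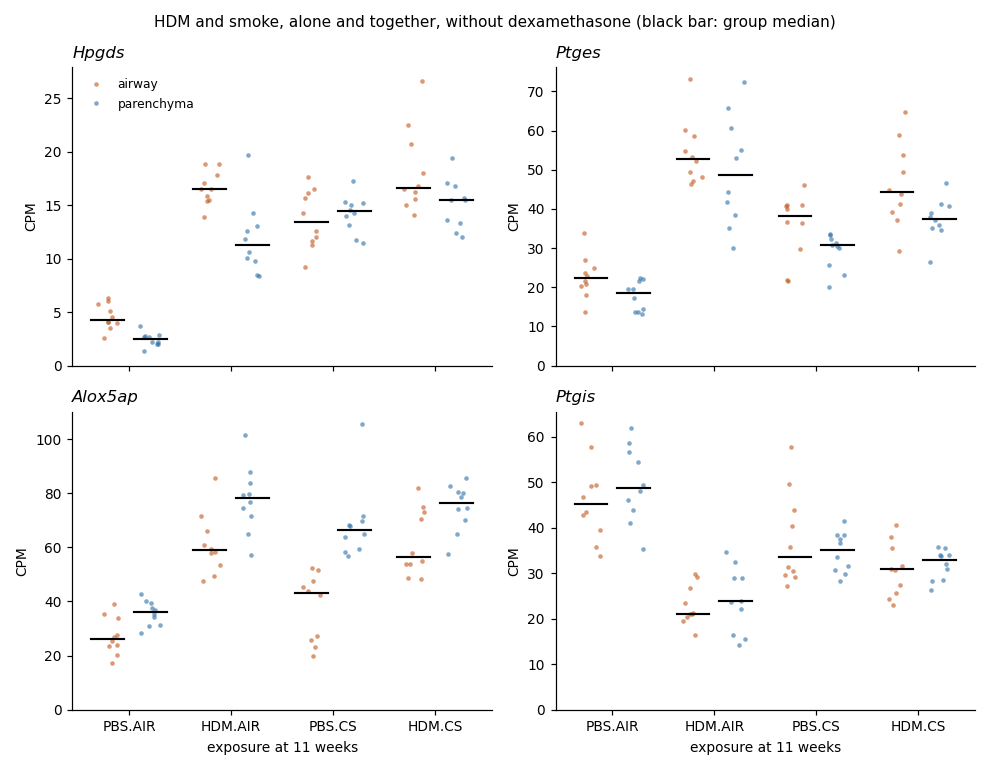
Levels in CPM of Hpgds, Ptges, Alox5ap and Ptgis in the PBS.AIR, HDM.AIR, PBS.CS and HDM.CS groups at 11 weeks, 1 point per library (10 per group), black bars at the group medians, airway in orange and parenchyma in blue. In Hpgds all exposed groups sit above the PBS.AIR libraries, which reach 6.34 CPM, and the parenchymal medians are 11.2 CPM with HDM, 14.4 with smoke and 15.5 with both.

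Dexamethasone without other exposure raised Ptgs2 and Ptges. In PBS.AIR.DEX parenchyma Ptgs2 stood at 51 to 119.6 CPM with a median of 80.2, above every PBS.AIR library (log2FC 1.24, SE 0.21, adjusted p = 1.7e-06), and in airways 7 of 10 libraries lay above all controls (log2FC 0.63, SE 0.21, adjusted p = 0.026). Ptges stood at 25.7 to 39.8 CPM with a median of 32.5 in the parenchyma, also without overlap (log2FC 0.90, SE 0.15, adjusted p = 3.8e-07), and rose by 0.77 ± 0.14 log2FC in airways. Hpgds rose in the parenchyma (log2FC 0.89, SE 0.19, adjusted p = 0.00012), from a median of 2.45 to 4.38 CPM, and Alox5ap fell in airways (log2FC -0.44, SE 0.13, adjusted p = 0.015). The airway calls of Alox5ap and Ptgs2 each did not hold with 1 of 8 alternatives (adjusted p = 0.057 and 0.053). With these, 3 of 10 genes changed in each tissue, beside 14.9% of all genes in airways and 22.6% in the parenchyma. Macrophage markers summed to 1527 to 2350.1 CPM in PBS.AIR.DEX parenchyma, above PBS.AIR, with 2 of 8 higher and 1 lower. Their part was not tested.

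After HDM, 3 of 10 genes changed with dexamethasone in airways and 2 of 10 in the parenchyma, beside 28.6% and 28.5% of all genes. Ptgis rose in both, from a median of 21.1 to 32.2 CPM in airways (log2FC 0.52, SE 0.12, adjusted p = 0.00044) and by 0.38 ± 0.13 log2FC in the parenchyma. Its medians of 32.2 and 27.5 CPM stayed below the PBS.AIR medians of 45.2 and 48.8 CPM. Alox5ap and Hpgds fell in airways (log2FCs of -0.31 ± 0.12 and -0.28 ± 0.11), and Lta4h fell in the parenchyma (-0.14 ± 0.05). The airway calls of Alox5ap and Hpgds each did not hold with 4 of 9 alternatives (adjusted p = 0.064 to 0.12 and 0.072 to 0.089), and the parenchymal call of Lta4h did not with one fit of all libraries (adjusted p = 0.12). Without HDM.AIR airway replicate 6, Alox5ap no longer passed (log2FC -0.25, adjusted p = 0.12) and Alox15 did (log2FC -0.99, adjusted p = 0.012). Ptges, raised by dexamethasone alone, did not pass after HDM (0.13 ± 0.13 and 0.10 ± 0.13), and the effects differed (log2 difference -0.64, SE 0.19, adjusted p = 0.023 in airways and log2 difference -0.80, SE 0.20, adjusted p = 0.0027 in the parenchyma). In the parenchyma the dexamethasone effect also differed with HDM for Hpgds (-0.87, though not with a filter of CPM 10, adjusted p = 0.055). It did for Ptgis as well, with the opposite sign (0.66). That made 1 of 10 genes in airways and 3 of 10 in the parenchyma, beside 4.62% and 12.4% of all genes. For Ptgs2 the difference in the parenchyma was -0.81 ± 0.30 (adjusted p = 0.058).

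After smoke, dexamethasone lowered Alox5, Alox5ap and Ltc4s in the parenchyma, while Lta4h did not pass the test (-0.02 ± 0.05 log2FC, adjusted p = 0.85). Alox5 went from a median of 32.7 CPM (28.8 to 39.1) to a median of 21.8 CPM (16.3 to 28.5), with no overlap (log2FC -0.62, SE 0.13, adjusted p = 0.00021). Alox5ap fell to a median of 45.4 CPM (39.1 to 53.7), also with no overlap (log2FC -0.59, SE 0.12, adjusted p = 0.00014), and Ltc4s fell to a median of 6.11 CPM (2.77 to 7.38) (log2FC -0.80, SE 0.18, adjusted p = 0.00039). Alox5 and Alox5ap stayed above the PBS.AIR medians of 16.1 and 36.1 CPM. Hpgds fell as well (-0.43 ± 0.12), while Ptges rose further (log2FC 0.66, SE 0.13, adjusted p = 0.00011) and the log2FC of Ptgs2 was 0.38 ± 0.21 (adjusted p = 0.21). In smoke-exposed airways Alox5ap (-0.43 ± 0.13) and Hpgds (-0.44 ± 0.12) fell and Ptges rose (0.51 ± 0.13), where Alox5ap did not pass with airways fitted alone (adjusted p = 0.058). In all, 5 of 10 genes changed in the parenchyma and 3 of 10 in airways, beside 16.9% and 11.3% of all genes. In smoke-exposed parenchyma 1732 of the 18250 genes tested were lower with dexamethasone and 1348 higher. Of the macrophage markers 2 of 8 were lower there and none higher. Of the eosinophil markers 4 of the 5 tested were lower, and of the platelet markers 4 of 4. Their part was not tested.

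In mice with both HDM and smoke, 1 of 10 genes changed with dexamethasone in each tissue, beside 9.30% of all genes in airways and 7.86% in the parenchyma. These were Alox5ap in airways (log2FC -0.36, SE 0.12, adjusted p = 0.038) and Ptges in the parenchyma (log2FC 0.42, SE 0.13, adjusted p = 0.028). The Alox5ap call did not hold with 4 of 8 alternatives, namely edgeR, DESeq2, one fit of all libraries and each tissue alone (adjusted p = 0.053 to 0.12). Alox5 had a log2FC of -0.15 ± 0.13 in the parenchyma, where dexamethasone after smoke alone gave -0.62 ± 0.13. The difference between these effects was not tested. Ptgs2 spread widely in HDM.CS.DEX parenchyma, at 37.6 to 146.8 CPM with a median of 79.8.

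**Figure D4:**
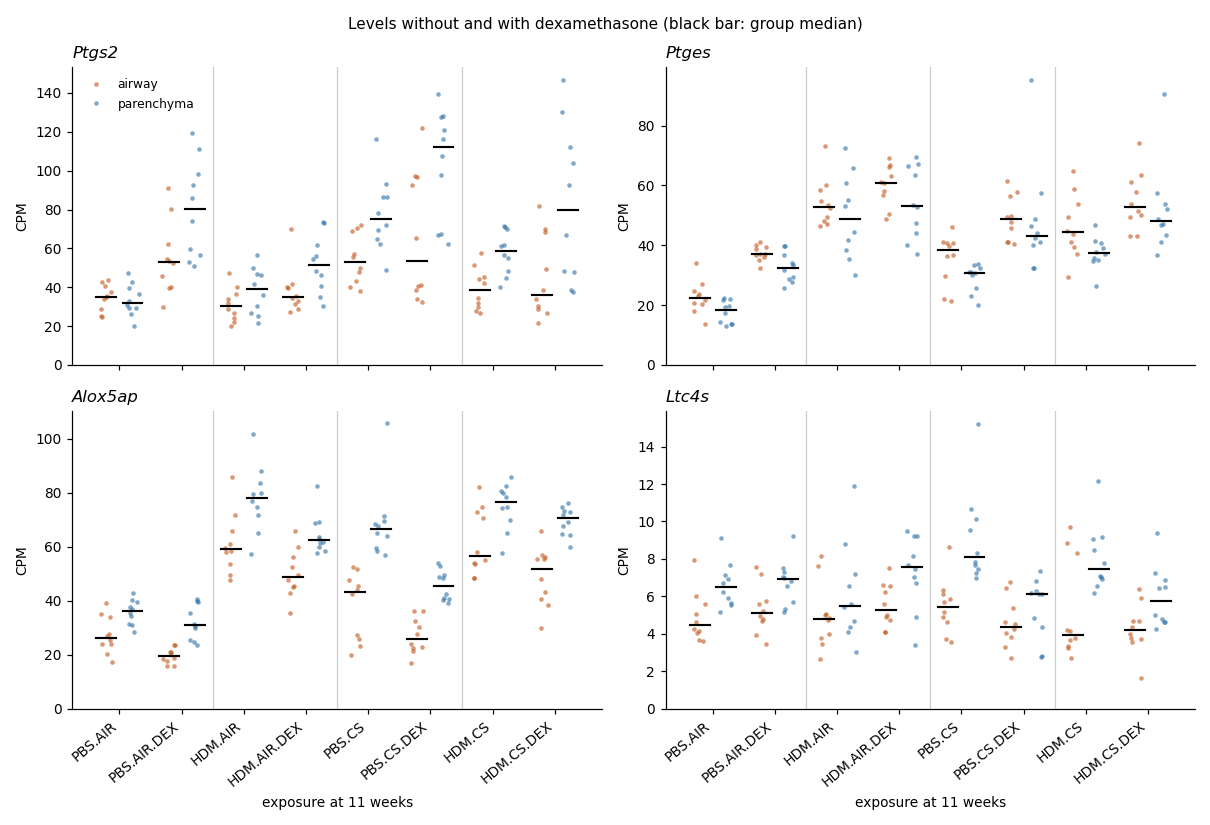
Levels in CPM of Ptgs2, Ptges, Alox5ap and Ltc4s in the 8 exposures at 11 weeks, each group without dexamethasone beside its DEX group, 1 point per library (10 per group), black bars at the medians, airway in orange and parenchyma in blue. Ptgs2 in the parenchyma moves from a median of 31.9 to 80.2 CPM with dexamethasone alone, and Alox5ap falls between PBS.CS and PBS.CS.DEX from 66.4 to 45.4 CPM.

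The other genes of eicosanoid metabolism were 34, of arachidonate release, other lipoxygenases, other prostanoid synthases, cysteinyl leukotriene conversion, inactivation and transport. Of these, 30 passed the filter at 3 weeks and 31 at 11 weeks, and Pla2g10, Pla2g2f and Alox12b passed in neither. HDM at 3 weeks changed 23 of 30 in airways (11 higher and 12 lower), where 74.6% of all genes changed, and 21 of 30 in the parenchyma (11 higher and 10 lower), where 77.7% did. At 11 weeks it changed 21 of 31 in airways (11 higher and 10 lower) beside 61.1% of all genes, and 25 of 31 in the parenchyma (18 higher and 7 lower) beside 59.5%. The median log2FC of the list at 3 weeks was -0.11 in both tissues, beside -0.07 in airways and -0.13 in the parenchyma over all genes. Smoke changed 9 of 31 in airways (7 higher and 2 lower) beside 13.7% of all genes, and 16 of 31 in the parenchyma (13 higher and 3 lower) beside 35.9%.

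At the start of the pathway stand the phospholipases and other genes of arachidonate release. Of the secreted enzymes, Pla2g2d rose from a median of 2.80 CPM (1.66 to 4.31) to a median of 37.3 CPM (21.9 to 46.6) in the parenchyma, without overlap (log2FC 3.63, SE 0.40, adjusted p = 9.5e-11). Pla2g5, near 0 at 0 to 0.544 CPM in PBS controls, rose to a median of 4.00 CPM (2.28 to 6.02) (log2FC 4.19, SE 0.52, adjusted p = 1.6e-09). Of 7 release genes tested, HDM raised 5 in the 3 week parenchyma (33.4% of all genes rose) and 6 at 11 weeks (32.6%), and lowered none. In airways 4 rose at 3 weeks (34.1%), and at 11 weeks 4 rose and 1 fell (31.3% and 29.8%). Smoke raised 5 of 7 in the parenchyma (17.7%) and 1 of 7 in airways (7.66%).

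Of all genes of the pathway tested, the 10 included, Hpgd had the lowest log2FC under HDM in both tissues and at both times. It encodes the dehydrogenase that inactivates prostaglandins, and stood at 442 to 685 CPM with a median of 567 in PBS parenchyma and 65.7 to 138.1 CPM with a median of 82.8 after HDM, without overlap (log2FC -2.76, SE 0.18, adjusted p = 1.7e-17). In airways its log2FC was -2.83 ± 0.18, and at 11 weeks -2.19 ± 0.25 in the parenchyma and -1.82 ± 0.23 in airways. Dpep1, a dipeptidase that converts leukotriene D4 to E4, fell in 3 week airways too (-2.27 ± 0.17). Tbxas1, the thromboxane synthase of platelets and macrophages, rose from a median of 13.3 CPM (9.26 to 17.7) to a median of 70.4 CPM (60.5 to 84.7) in the parenchyma (log2FC 2.38, SE 0.18, adjusted p = 9.3e-16), and smoke raised it too (1.30 ± 0.14). Cyp4f18, which inactivates leukotriene B4, rose with HDM (2.26 ± 0.16 in the 3 week parenchyma) and with smoke (1.07 ± 0.25). Alox12e, an epidermal lipoxygenase related to Alox15, was near 0 in PBS parenchyma, at 0 to 1.29 CPM, and rose with HDM (4.11 ± 0.93).

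Smoke lowered the lipoxygenases Alox12e and Aloxe3 in airways (-1.59 ± 0.38 and -1.02 ± 0.17) and raised Ggt1, a glutamyl transferase that converts leukotriene C4 to D4, in both tissues (2.12 ± 0.21 in airways and 1.41 ± 0.29 in the parenchyma). Ptgds, a second prostaglandin D2 synthase, was at 0.192 to 1.07 CPM in PBS.AIR parenchyma and fell with smoke (-1.87 ± 0.60). It fell with HDM as well (-1.78 ± 0.52 in 11 week airways), where Ephx2, a soluble epoxide hydrolase, also fell (-1.74 ± 0.44). Pla2g4c, a further phospholipase, rose with HDM in 3 week airways (2.16 ± 0.33). With both exposures Dpep2, a dipeptidase of the same kind as Dpep1, rose in airways (1.65 ± 0.14), and Alox8 rose in the parenchyma from a median of 0.0826 to 0.257 CPM, a low level (1.52 ± 0.44).

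**Figure D5:**
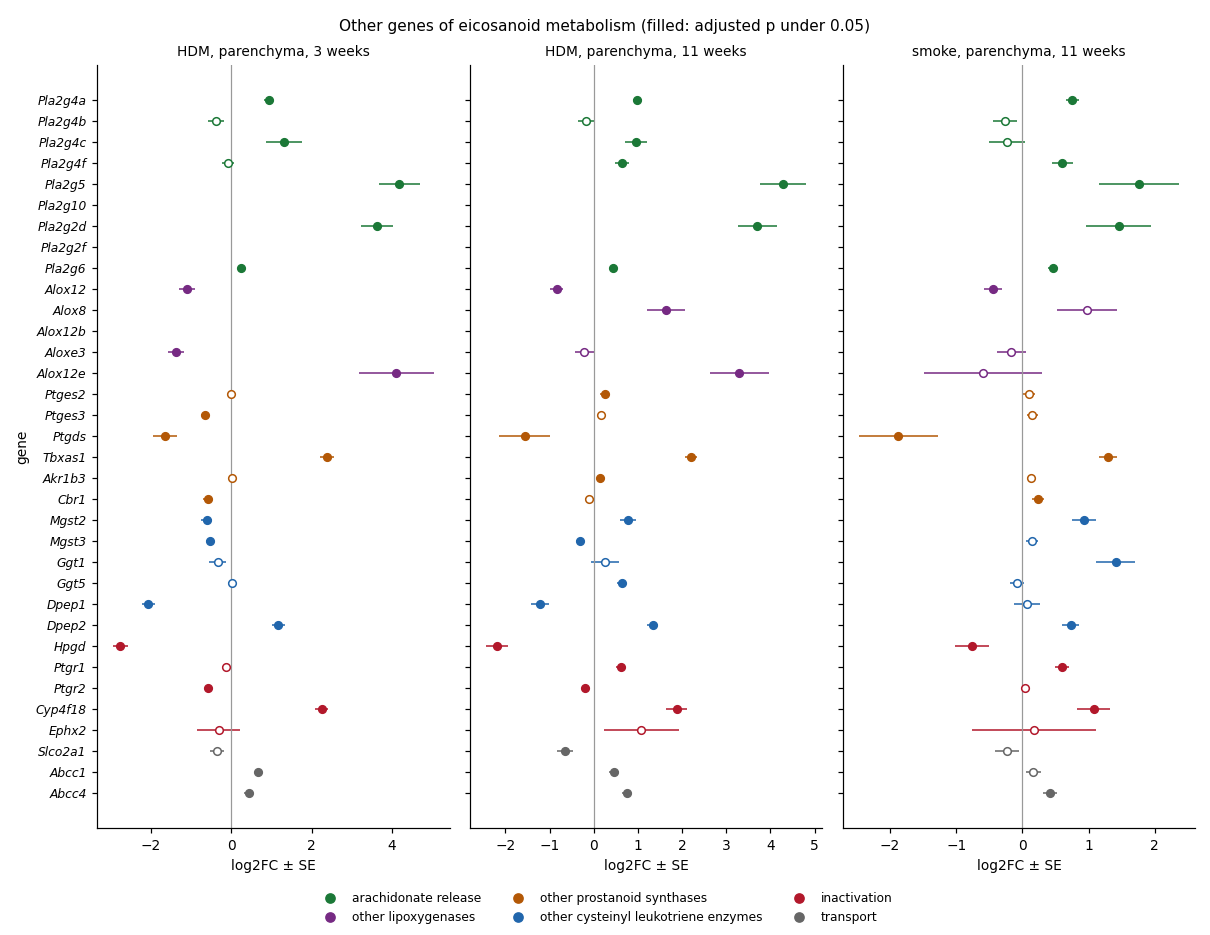
Log2 fold change with its standard error for the 34 other genes of eicosanoid metabolism, coloured by role, in the parenchyma for HDM at 3 weeks, HDM at 11 weeks and smoke at 11 weeks; filled points had an adjusted p under 0.05, and genes with no point did not pass the filter. Pla2g5, Alox12e and Pla2g2d lie farthest to the right under HDM, at 4.19, 4.11 and 3.63 at 3 weeks, and Hpgd farthest to the left, at -2.76.

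Across all 20 groups, ranked by mean CPM, the levels of a gene formed a near-continuous order. Of the 19 steps between neighbours in that order, none exceeded the SDs of both groups for Ltc4s, Alox15, Ptgs1, Ptgs2 and Ptges, 1 did for Alox5, Alox5ap and Lta4h, and 2 did for Hpgds and Ptgis. The mean of the highest group was 24.9 times that of the lowest for Alox15 (3 week HDM airway against 11 week PBS.CS.DEX parenchyma) and 8.92 times for Hpgds (3 week HDM airway against 11 week PBS.AIR parenchyma). It was 4.37 times for Alox5ap, between 3 and 4 times for Ptgis (3.80), Ptges (3.67), Alox5 (3.55) and Ptgs2 (3.5), and least for Ltc4s (2.30), Ptgs1 (2.23) and Lta4h (1.55). Alox5ap and Lta4h were highest in 3 week HDM parenchyma, Alox5 and Ltc4s in 11 week PBS.CS parenchyma, and Ptgs2 in 11 week PBS.CS.DEX parenchyma.

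The genes most like each member in mean log2 CPM over the 20 groups were found among 16315 genes, by Pearson's r, as a description. The groups share tissue and exposure, so many genes follow them. Alox5ap was closest to Atp8b4 (r = 0.99), Havcr2 and Tifab, and Ptgis to Klhl12 (r = 0.98), P3h4 and Micu3. Lta4h was closest to Plod3 (r = 0.98), Myo9b and Tbc1d10b. Hpgds was closest to Vnn3 (r = 0.97), Orm2 and Noxo1, Ptgs1 to Arrdc1 (r = 0.96), Pfkfb4 and Lamp1, and Alox15 to Alox12e (r = 0.96), Scin and Stra6. Ptges was closest to Eps8 (r = 0.94), Hk2 and Bcl2l15, and Ptgs2 to Maff (r = 0.91), Cyb5b and M1ap. The lowest likeness was that of Alox5, with Ces2c (r = 0.88), Pcyox1 and Nox1, and of Ltc4s, with Slc6a4 (r = 0.87), Il18 and Car4. Among the members themselves, Alox5ap was most like Ptgs1 (r = 0.85) and Lta4h (r = 0.83), Hpgds was most like Ptges (r = 0.81), and Ptgis ran against Lta4h (r = -0.87).

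In the annotation, on mm10 (GRCm38), Alox5 lies at chr6:116410077-116461178 (minus strand), Alox5ap at chr5:149264767-149288153 (plus), Ltc4s at chr11:50236461-50238616 (minus), Lta4h at chr10:93453411-93484875 (plus) and Alox15 at chr11:70344152-70352031 (minus). Ptgs1 lies at chr2:36230426-36252272 (plus), Ptgs2 at chr1:150100031-150108227 (plus), Hpgds at chr6:65117293-65144908 (minus), Ptges at chr2:30889471-30929863 (minus) and Ptgis at chr2:167191805-167240604 (minus). All are protein coding, and counts are per gene over its exons. Genes on the opposite strand share exon bases with Alox5ap, Ltc4s, Ptgs1 and Ptgis, and without a stated strand their reads cannot be told apart. Of these partners, Gm26542 beside Ltc4s averaged 0.755 CPM against 5.92 CPM for Ltc4s, and 1110018N20Rik beside Ptgis averaged 0.746 CPM against 38.7 CPM.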

How the data were processed

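RNA of dissected airways and lung parenchyma was sequenced. Per the submitters' processing notes, the authors used bcl2fastq 2.20.0.422, STAR 2.5.1b, RSEM 1.2.31 and kallisto 0.44.0 with the mm10 build. The authors deposited the expected counts that this gave per gene, not normalized, in one table. Which of RSEM and kallisto made the table, and the strand of the reads, are not given in the sources used here. Values above 0 had a fractional part in 20.3% of cases and were rounded. Estimated counts share reads between genes of like sequence by a model.

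Of the 43346 identifiers 42462 matched a symbol in the GENCODE M21 annotation, without the version suffix. Groups came from the labels. The 3 week (43 libraries) and 11 week (160 libraries) groups were fitted apart, and all libraries together for HDM by week, with limma-voom (limma 3.58.1, R 4.3.3) on TMM factors (edgeR 4.0.16), without covariates. A gene was kept if 9 or more libraries reached the CPM that 10 counts make in a library of median size, which left 17381, 18250 and 18528 genes. P-values were Benjamini-Hochberg adjusted over all of these, and the method was tested on simulated data. Of 931 pairs of libraries within groups none agreed within sampling noise (lowest chi-square per gene 8.49).

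All 10 genes are named whatever their values. Other pathway genes are named at an adjusted p under 0.05 and a log2FC of 1 or more in size under HDM or smoke, at most 6 per comparison, and the 3 genes most like each member are given. The members and lists were chosen with earlier results of these data known. Promoters came from RefSeq and were found for 7 of the 10 genes, not for Alox5ap, Alox15 and Ptgis. Other tests (the quasi-likelihood test of edgeR, and DESeq2 1.42.0), normalization, filters and fits were tried, and so were runs of 20 library codes as a block. Leaving out each of 5 libraries that stood apart was chosen after seeing the data.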

Additional observations from a re-analysis of the deposited data

Results flagged for a closer look

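In 19 of the 180 sets of values tested, 1 per gene and group of 10 libraries or fewer, a single library lay far from the others in CPM. Chance gives about 1 in 20 (5%) where values are normally distributed, which was not checked, so 19 cannot be read as an excess. Each of the 19 was the highest of its group, and 16 libraries were involved. Replicate 9 of PBS.CS parenchyma was highest for Alox5ap (105.7 CPM, the next 71.4) and Ltc4s (15.2 CPM, the next 10.7). Replicate 6 of PBS.CS.DEX parenchyma was highest for Ptgs1 (137.9 CPM, the next 108.7) and Ptges (95.3 CPM, the next 57.6), and replicate 8 of HDM.CS.DEX parenchyma for the same genes (Ptgs1 at 217.7 CPM, the next 109.1, and Ptges at 90.6 CPM, the next 57.6). Replicate 6 of HDM.AIR airway, whose basal cell markers lay in the parenchymal range, was highest for Ptgs1 (139.9 CPM, the next 86.5), and replicate 10 of 3 week HDM airway for Alox5ap (93.2 CPM, the next 67.5).

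The other 11 were single values. For Alox15 they were replicate 1 of PBS.AIR airway (42.99 CPM), replicate 8 of HDM.CS.DEX airway (17.1 CPM) and replicate 5 of HDM.CS.DEX parenchyma (7.00 CPM). For Ptgis they were replicate 9 of PBS.AIR.DEX parenchyma (57.2 CPM) and replicate 9 of PBS.CS.DEX parenchyma (65.8 CPM). The rest were Alox5ap in replicate 6 of HDM.AIR.DEX parenchyma (82.6 CPM), Ltc4s in replicate 6 of HDM.CS parenchyma (12.2 CPM), Lta4h in replicate 1 of PBS.CS.DEX parenchyma (54.8 CPM), Ptgs2 in replicate 2 of HDM.AIR.DEX airway (69.9 CPM), Hpgds in replicate 5 of HDM.AIR parenchyma (19.7 CPM) and Ptges in replicate 1 of HDM.AIR airway (73.1 CPM).

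In 22 cases an effect differed between groups by a test of the difference itself. HDM differed by smoke in airways for Lta4h (-0.22), Hpgds (-1.51), Ptges (-0.91) and Ptgis (0.73), and in the parenchyma for Alox5ap (-1.02), Lta4h (-0.19), Hpgds (-2.20), Ptges (-1.13) and Ptgis (0.92), each as a log2 difference. Dexamethasone differed by HDM for Ptges in airways (-0.64), and in the parenchyma for Hpgds (-0.87), Ptges (-0.80) and Ptgis (0.66). HDM differed by tissue for Ptges at 3 weeks (-0.60) and Alox15 at 11 weeks (-1.45), and smoke for Hpgds (-0.96). HDM differed by week in airways for Alox15 (-1.59) and Ptgis (0.55), and in the parenchyma for Lta4h (-0.31), Alox15 (-1.68), Hpgds (0.66) and Ptgis (0.83).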

How the results depend on the processing

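Over the alternatives, 28 of 227 counts of changed members moved by over 1.5 times and the others did not. Of 2243 values of single members 2148 kept their side of the threshold, 50 passed newly and 45 no longer passed. No value that passed in the main fit or the alternative changed direction. For values that passed in neither, the direction was not followed. The counts for HDM alone, smoke alone, both together and HDM by smoke were among those that stayed. The cause of the moves was not tested. HDM by tissue at 3 weeks (1 of 10) gave 2 with edgeR, DESeq2 size factors or the block of library codes, and 3 with DESeq2, a filter of CPM 10 or one fit of all libraries. It gave 3 without HDM airway replicate 4 and 2 without replicate 2, 6 or 10. HDM by tissue at 11 weeks (1) gave 2 with edgeR or DESeq2, and 0 with the CPM 10 filter or without HDM.AIR airway replicate 6. Smoke by tissue (1) gave 0 with the CPM 10 filter and 2 with the block. HDM by week gave 1 in airways (2 reported) with edgeR or DESeq2, and 2 in the parenchyma (4 reported) with the CPM 10 filter. Dexamethasone after HDM gave 1 in airways (3 reported) with no filter or one fit, and in the parenchyma (2 reported) 1 with one fit and 4 with each tissue alone. Dexamethasone after HDM and smoke in airways (1) gave 0 with edgeR, DESeq2, one fit or each tissue alone, and dexamethasone by HDM in airways (1) gave 3 with the block. Comparisons between tissues have no value with each tissue alone. No library was left out other than the 5 that stood apart. Ltc4s was not tested with the CPM 10 filter.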
